A study of Mus musculus with 12 samples.

Results

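Lung and heart of the same 3 Adam19 KO mice were compared for transcript usage, the share that each annotated transcript takes of the estimated counts of its gene. Members were the 9727 genes, of 55679 listed in the series, whose transcripts summed to at least 100 estimated counts in every 1 of the 6 KO libraries (lung and heart of KO mice 1, 2 and 3). The same minimum was met by 8597 genes in the 6 WT libraries. Of the 9727 genes, 7144 had at least 2 transcripts with 10 or more estimated counts in at least 3 of the 6 libraries, and their 24973 transcripts were tested. All mice were young adult males of the 129S6/SvEvTac background. The KO mice were homozygous for the Adam19-tdTomato allele, in which exons 6 and 7 of Adam19 give way to a tdTomato reporter, and the WT mice carried no targeted allele. No mouse was treated. Each library came from the RNA of 1 whole frozen organ, and its label names the mouse, so lung and heart were paired by animal. Estimated counts per library summed to 17674790 to 28043360 in the KO lungs, 31784740 to 35862930 in the KO hearts and 18392290 to 33906290 in the WT organs.

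Most multi-exon genes can be read out as several transcripts, through alternative promoters, alternative splicing and alternative ends. Heart muscle is known for its own set of splice forms of sarcomere, mitochondrial and membrane traffic proteins, and RNA-binding proteins of the RBFOX, RBM20, RBM24 and MBNL families are known to act on them. ESRP proteins are the corresponding regulators of epithelial cells, of which the lung holds many kinds. A share within a gene does not change when the whole gene is more or less abundant, but in a whole organ it mixes the forms of all cell types present, and fewer cells of a type cannot be told apart from less RNA per cell.

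The labelled organs carried their own markers. Summed over 10 heart muscle markers, the deposited gene level was 21.0 to 21.2 on the log2 scale in the KO hearts and 13.7 to 14.2 in the KO lungs, and all 10 lay higher in every heart. For 10 lung epithelium markers the sum was 19.1 to 19.2 in the lungs and 12.8 to 13.2 in the hearts, and 9 of the 10 lay higher in every lung, Hopx being the other. Other cell types moved with the organs too. The sum over 6 leukocyte markers was 12.6 to 13.0 in the lungs against 7.87 to 7.98 in the hearts, with Ly6g at 0 in all hearts. The 5 smooth muscle markers summed to 13.1 to 13.6 against 14.2 to 14.4, and 3 of the 5 lay higher in every heart. Cnn1 and Tagln overlapped between the organs. The 8 skeletal muscle markers summed to 6.40 to 6.72 against 12.7 to 14.3, nearly all of it from Acta1, which heart muscle also makes, and Myh4 was at 0 in all lungs. Red blood cell (12.9 to 17.2 against 12.8 to 15.4) and adipocyte (9.80 to 11.9 against 9.32 to 12.7) sums overlapped between the organs. The part of cell composition in the shares below was not tested.

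A transcript was called when limma on the log2 odds of its share, with the mouse as a block, gave a Benjamini-Hochberg adjusted p under 0.05 and its mean share differed by at least 10 percentage points (points, from here). Of the 24973 transcripts, 1110 were called (4.44%) in 796 genes, 535 with a higher share in lung (2.14%) and 575 with a higher share in heart (2.3%). The median difference of the called transcripts was 28.5 points. Without the block the same test called 2746 (11%), among them 1086 of the 1110. In 269 genes, 3.77% of the 7144, at least 1 transcript gained in lung and at least 1 other gained in heart, and these are called switch genes below. In a switch gene, the transcript with the largest gain in lung is called the lung form and that with the largest gain in heart the heart form, and the smaller of both gains is the size of the switch. Counted without any test, 358 genes (3.68% of the 9727) had 1 top transcript in all 3 KO lungs and another in all 3 KO hearts, 83 of them switch genes.

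Protein-coding forms made up most of the transcripts tested and most of the calls. Of 16825 protein-coding transcripts tested, 398 were called higher in lung and 528 higher in heart (5.5% called, against 4.44% over all). Transcripts annotated with a retained intron were called less often (1.71%). Their calls leaned the other way, with 67 higher in lung and 11 higher in heart of 4553 tested. Over all tested genes, retained-intron transcripts took 3.17%, 3.63% and 4.17% of the counts in the KO lungs and 1.55%, 1.61% and 1.49% in the KO hearts. In the WT mice they took 2.85%, 3.19% and 4.17% in lung and 1.83%, 1.86% and 1.49% in heart, so lung libraries lay above heart libraries in both genotypes. Transcripts annotated for nonsense-mediated decay, the pathway that removes RNAs with early stop codons, were called in 3.46% of 1618 tested. Of these calls 36 were higher in lung and 20 higher in heart.

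Both forms of 265 switch genes were found in the GENCODE vM39 annotation of the mm39 assembly, and most pairs differed at their start or inside. In 134 pairs (50.6%) the first exons did not overlap, in 101 (38.1%) 1 form held an internal exon that the other skipped, in 43 the last exons did not overlap, in 38 a splice site was shifted and in 34 an intron was retained in 1 form. A pair may count under several of these. Of 212 pairs with 2 coding forms, 40 encoded the same protein, 103 had more codons in the heart form and 65 had more in the lung form. Among the 265 pairs, 49 had a protein-coding heart form and another type of lung form, and 11 the reverse.

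**Figure D1:**
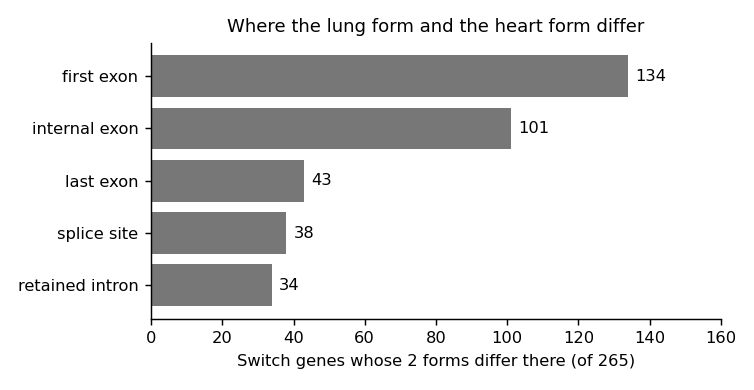
Number of switch genes (horizontal axis) whose lung form and heart form differ at the first exon, an internal exon, the last exon, a splice site or a retained intron, of the 265 pairs found in the annotation. A different first exon (134) and an internal exon (101) were the most frequent.

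The largest switches replaced nearly the whole output of a gene. Vdac3 encodes a porin of the outer mitochondrial membrane. Its lung form (ENSMUST00000009036.11) took 93.9%, 94% and 91.6% of the gene in the KO lungs and 4.73%, 7.88% and 5.06% in the KO hearts, a difference of 87.3 ± 1.61 points (mean ± SD over 3 mice, limma adjusted p = 0.0224). The heart form (ENSMUST00000179233.2) took 95.2%, 92.1% and 94.9% in the hearts, and how its exons differ was not analysed here because vM39 does not list it. A transcript of Gm61604 matches Vdac3 at 99.5% identity over 1068 bases and has no listed values, so how its reads were assigned is uncertain. Usp25, a deubiquitinating enzyme, moved between 2 forms that differ by a pair of internal exons. Its heart form took 1.78%, 0.195% and 0.358% in the lungs and 78.6%, 79.9% and 91% in the hearts, a difference of 82.4 ± 7.29 points (adjusted p = 0.029). The lungs were thus close to 0 and the hearts close to 80% or above.

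Idh3b, the beta subunit of the mitochondrial isocitrate dehydrogenase that uses NAD, changed at a splice site, from 384 codons in the lung form to 380 in the heart form. The heart form took 22%, 19.5% and 18.8% in the lungs and 92.6%, 96.2% and 95.9% in the hearts (difference 74.8 ± 3.61 points, adjusted p = 0.0224). The gene itself was also far more abundant in heart, with 16784, 16156 and 22446 estimated counts against 1577, 2255 and 1033 in lung.

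Several of the largest switches were between forms annotated with different first exons and coding sequences of unequal length. Promoter use itself was not tested. Fdft1 encodes squalene synthase, which makes the first sterol-specific intermediate of cholesterol synthesis. Its lung form of 416 codons took 81.4%, 83.4% and 88% in the lungs and was listed at 0 in all 3 hearts, where a form of 460 codons took 94.9%, 98.3% and 98.2%. Rnf128, a membrane-bound ubiquitin ligase, had a lung form of 402 codons at 81.4%, 84.4% and 90.2% in the lungs, against a heart form of 428 codons at 99.9%, 99.8% and 100% in the hearts. Ppp2r3a is a regulatory subunit of protein phosphatase 2A. Its long form of 1150 codons took 80.6%, 87.7% and 89.9% in the lungs and 16.4%, 17.3% and 15.4% in the hearts, where the short form of 530 codons took 82.5%, 81.7% and 82.9%. Rapgef4, the cyclic AMP sensor EPAC2, went the other way in length, with a lung form of 867 codons at 78%, 76.8% and 82.6% in the lungs and a heart form of 1011 codons at 76.2%, 87.3% and 91.5% in the hearts. In none of these 4 genes did a KO lung overlap a KO heart, but the largest switches were chosen by these KO values.

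Slc41a3, of a family of magnesium transporters, had a lung form of 488 codons at 88.5%, 87.4% and 89.3% in the lungs and 16.6%, 14.9% and 10% in the hearts. Dennd4b, of a family that activates Rab proteins of vesicle traffic, had a heart form at 16.7%, 8.46% and 16.3% in the lungs and 82.5%, 65.9% and 88.6% in the hearts. Ano10, an anoctamin membrane protein, had a heart form at 0.229%, 0% and 0.316% in the lungs and 57.8%, 62.7% and 75.5% in the hearts. That heart form of Ano10 is annotated with 100 codons and the lung form with 659, so the reading frame it keeps is much shorter.

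In 4 other genes of the largest 15 the first exon changed while the protein stayed the same. Myl12a encodes a regulatory light chain of nonmuscle myosin, and both forms hold 172 codons. Its heart form took 9.71%, 12.9% and 8.66% in the lungs and 92.9%, 89.8% and 92.4% in the hearts (difference 81.3 ± 3.82 points, adjusted p = 0.0224). Its forms share stretches of over 500 bases at 95% identity or more with other transcripts, among them Myl12b, so how reads were split between these genes is uncertain. Rnase4 encodes a secreted ribonuclease and shares its upstream exons with Ang. Its lung form took 68.6%, 64.3% and 78.6% in the lungs and 0%, 1.52% and 0% in the hearts, and its counts overlap those of Ang. Cnot7, a deadenylase subunit of the CCR4-NOT complex, had a lung form at 69.2%, 68.8% and 71.8% in the KO lungs that was listed at 0 in all KO hearts. Dyrk1a, a protein kinase, had a heart form at 28.8%, 5.37% and 11.4% in the KO lungs and 90%, 82% and 88.4% in the KO hearts. Among the largest 15, the WT organs overlapped in Cnot7 and Dyrk1a, as given with the WT values below, and in no other of them. Slc41a3 fell short of the minimum summed count for genes in WT, with 95.2 estimated counts in a WT lung. Its WT shares are thus below the count set for reading shares.

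**Figure D2:**
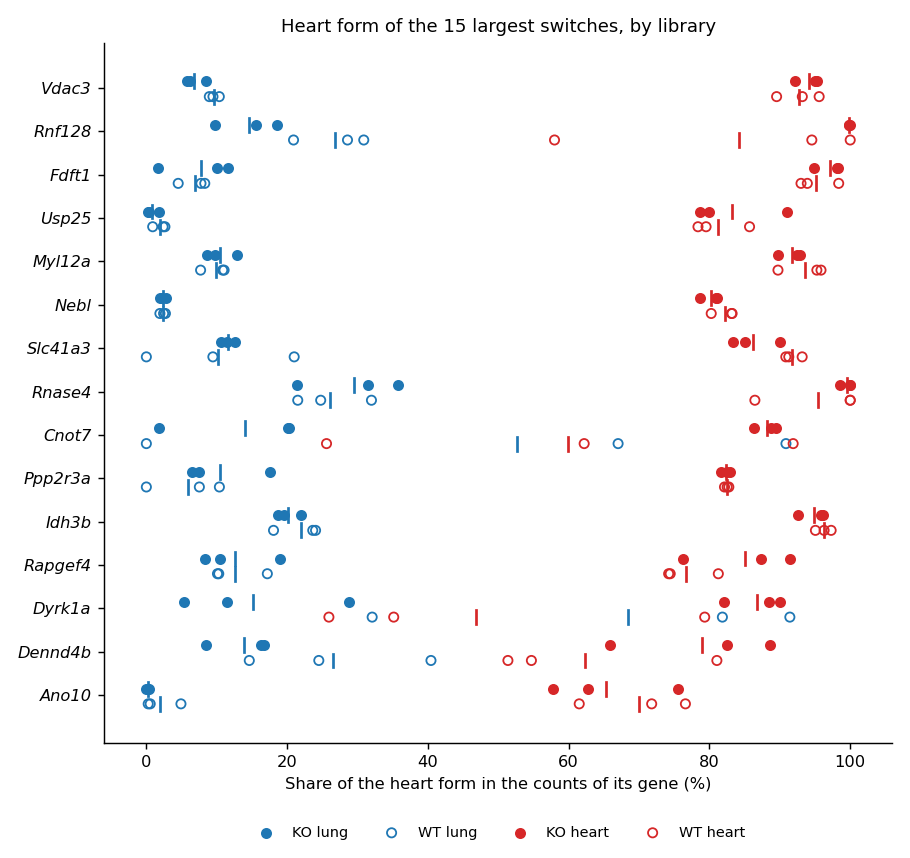
Share of the heart form in the estimated counts of its gene (horizontal axis, %) for the 15 largest switches between 2 protein-coding forms. Filled points are the 3 KO lungs (blue) and 3 KO hearts (red), open points the WT organs, and bars the group means. The KO organs lie apart in all 15 genes, while the WT organs overlap in Cnot7 and Dyrk1a. For Slc41a3 a WT lung held 95.2 estimated counts, below the minimum summed count for genes.

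Sarcomere, Z-disc and actin filament genes had 28 of 227 tested transcripts called (12.3%, against 4.44% over all). Of 34 listed genes 32 were tested, 14 had a called transcript (43.8%, against 11.1% of all 7144 genes) and 9 were switch genes, among them Nebl, Svil, Palld, Pdlim5, Lrrfip2, Pdlim7, Tpm1 and Lrrfip1. The median over the genes of the largest share difference was 22.6 points in the list and 10.1 points over all genes tested. This list and each list below had more tested transcripts per gene than all genes together. That can raise the percentage of genes with a call and the median largest difference. Genes with a call but no switch were Ablim1, Add1, Capzb, Lmo7 and Pdlim3. The list was drawn up with earlier results of these data known.

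Nebl lies on chromosome 2 and encodes, from separate promoters, the Z-disc protein nebulette and a short LIM-domain form. The short form of 270 codons took 91.3%, 91% and 92.2% in the lungs and 5.94%, 6.82% and 5.13% in the hearts (difference 85.6 ± 1.46 points, adjusted p = 0.0224). The long form of 1014 codons took 2.77%, 1.99% and 2.17% in the lungs and 81.1%, 81% and 78.7% in the hearts. The long form brings 24 coding internal exons that the short one lacks. Svil encodes supervillin, which ties actin and myosin to membranes. Its heart form of 2170 codons took 1.52%, 0.96% and 1.88% in the lungs and 62.6%, 61.4% and 63.1% in the hearts, against a lung form of 1766 codons at 66.6%, 63.8% and 71.1% in the lungs. The added codons of the heart form include an internal exon of 870 bases, exon 8, included at 17.3%, 20.3% and 18.9% in the lungs and 97.3%, 97.9% and 97% in the hearts.

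Palld encodes the actin-bundling protein palladin. Its heart form of 1408 codons took 1.49%, 0.608% and 4.07% in the lungs and 62.9%, 62.9% and 56.2% in the hearts, and its lung form has 663 codons. Pdlim5 encodes a PDZ and LIM domain protein of the Z-disc. Its long form of 591 codons, which carries the LIM domains, took 87.5%, 87.4% and 87.8% in the lungs and 9.29%, 7.94% and 7.12% in the hearts, and the form of 239 codons took 5.93%, 4.35% and 5.85% and 64.6%, 56.5% and 60.2%. The gene had 17266, 22383 and 19882 estimated counts in the hearts against 2331, 3133 and 1478 in the lungs. These counts are not adjusted for library depth, which was higher in the KO hearts. Lrrfip2, a leucine-rich repeat protein, had a heart form of 722 codons at 0%, 0.483% and 0.374% in the lungs and 62.8%, 59.2% and 59.6% in the hearts.

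Tpm1 and Capzb fall outside the naming rule and were picked after their values were seen, because their muscle forms are textbook cases. Tpm1 encodes tropomyosin 1, and the transcript that gained in heart took 29.8%, 25.6% and 20% in the lungs and 97.7%, 98.1% and 98% in the hearts. Capzb encodes the beta subunit of the actin capping protein, and its called transcript took 12.6%, 15.3% and 14.2% in the lungs and 85.1%, 84.1% and 78.6% in the hearts. In both genes the lungs stayed under 30% and the hearts above 78%.

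In the list of metabolic and mitochondrial genes, 13 of 81 tested transcripts were called (16%, against 4.44% over all). Of 23 listed genes 17 were tested, and 7 had a called transcript (41.2%, against 11.1% of all genes). Of these, 5 were switch genes (Slc25a3, Ndufv3, Mff, Gapdh and Aldoa), while Acacb and Pkm had a call without a switch. The median largest difference of the list was 23.4 points, against 10.1 over all genes. Slc25a3 encodes the mitochondrial phosphate carrier, which feeds ATP synthesis, and uses either of 2 neighbouring exons at position 3. The lung transcript (ENSMUST00000076694.13) took 62.5%, 59.2% and 42.8% in the lungs and 3.31%, 3.24% and 3.03% in the hearts, and the heart transcript (ENSMUST00000170810.8) took 15.2%, 10.6% and 12.3% and 95.5%, 96% and 96% (difference 83.2 ± 2.6 points, adjusted p = 0.0224).

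The exons behind the Slc25a3 switch are shown because they are exchanged between both forms. Capitals mark the exon and lower case the 20 intron bases on either side, 5′ to 3′ on the transcript strand. Both lie on the minus strand of mm39, the lung exon of 122 bases at chr10:90957784-90957905 and the heart exon of 125 bases at chr10:90958069-90958193.
Slc25a3 exon 3, lung form: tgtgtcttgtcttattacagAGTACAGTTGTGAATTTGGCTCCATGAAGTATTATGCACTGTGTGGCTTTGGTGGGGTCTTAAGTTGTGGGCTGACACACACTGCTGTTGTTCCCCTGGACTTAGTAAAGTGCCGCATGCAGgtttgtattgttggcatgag
Slc25a3 exon 3, heart form: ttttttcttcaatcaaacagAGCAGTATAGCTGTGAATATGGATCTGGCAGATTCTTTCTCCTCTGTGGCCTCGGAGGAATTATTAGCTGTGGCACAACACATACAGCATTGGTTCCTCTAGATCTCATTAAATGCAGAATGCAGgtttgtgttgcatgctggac
Read over the transcripts that either hold or skip the exon, the lung exon was included at 80.1%, 84.8% and 65% in the KO lungs and 3.87%, 3.53% and 3.59% in the KO hearts. The heart exon was included at 19.5%, 15.2% and 22.2% in the lungs and 96.1%, 96.5% and 96.4% in the hearts. Heart thus used its own exon almost alone, and lung used mostly the other one with a minor part of the heart exon.

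Ndufv3 encodes a subunit of respiratory complex I, and its lung form holds an extra coding exon of 1092 bases. That form of 468 codons took 36.7%, 37.8% and 48.5% in the lungs and 5.86%, 4.8% and 3.84% in the hearts, where the form of 104 codons took 94%, 95.1% and 96.1%. Mff is the receptor of the fission machinery on mitochondria. Its heart form of 291 codons took 10.1%, 10.6% and 11.8% in the lungs and 41%, 41.3% and 46.4% in the hearts, and its lung form has 218 codons. Gapdh and Aldoa are enzymes of glycolysis. The lung form of Gapdh took 26.3%, 43.7% and 22.9% in the KO lungs and 2.29%, 9.49% and 2.14% in the KO hearts, and Gapdh has many near-identical copies, of which Gm12671 alone reached 10426 estimated counts in a KO library, so its shares are uncertain. In Aldoa the lung form took 13.8%, 14.7% and 22.2% in the lungs and 1.94%, 3.7% and 2.35% in the hearts. A transcript of Gm57854 matches Aldoa at 100% identity over 1373 bases and has no listed values, so the Aldoa shares are uncertain too.

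Cell adhesion and junction genes had 9 genes with a called transcript among 26 tested (34.6%, against 11.1% of all genes). They had 3 switch genes, Plec, Exoc7 and Dmd, where 3.77% of all genes tested were switch genes. The median largest difference was 15.6 points, against 10.1 over all genes. Of 198 tested transcripts 16 were called (8.08%, against 4.44% over all). Calls without a switch fell in Ank3, Cd47, Ctnnd1, Dst, Epb41 and Numb. Plec encodes plectin, a linker of intermediate filaments whose promoters each give a different start. Its lung form took 55.4%, 52.1% and 61.6% in the lungs and 6.07%, 5.24% and 7.3% in the hearts, and its heart form 6.98%, 6.54% and 8.77% and 56.2%, 47.7% and 53.1%. Dmd encodes dystrophin, which links actin to the membrane of muscle. The full-length form of 3678 codons took 35.8%, 39.2% and 41.2% in the lungs and 95.3%, 95.1% and 95.4% in the hearts, and a short form of 617 codons from an internal promoter took 37.8%, 34.2% and 35.6% in the lungs and was listed at 0 in all hearts. Exoc7 encodes a subunit of the exocyst, which tethers vesicles to the membrane. The heart form was listed at 0 in all 3 lungs and took 48.1%, 51.2% and 35.4% in the hearts (difference 44.9 ± 8.35 points, adjusted p = 0.0261).

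Membrane traffic genes had 11 with a called transcript among 24 tested (45.8%, against 11.1% of all genes). They had 2 switch genes, Rabgap1l and Clta, where 3.77% of all genes tested were switch genes. Of their 130 tested transcripts 14 were called (10.8%, against 4.44% over all). The median largest difference was 19.1 points, against 10.1 over all genes. Genes with a call alone were Ap1b1, Ap2a1, Eps15, Ktn1, Picalm, Rtn4, Snap23, Tmed2 and Tmem87a. Rabgap1l encodes a Rab GTPase-activating protein. Its short form of 370 codons took 69.6%, 67.2% and 67.6% in the lungs and its long form of 815 codons took 72.8%, 70.8% and 75.5% in the hearts. Clta encodes a light chain of clathrin, the coat of endocytic vesicles. The heart form, with 1 added exon of 36 bases, took 0.638%, 0.324% and 0.2% in the lungs and 26.4%, 32.2% and 28.9% in the hearts.

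Signalling proteins and transcription factors stood near the background, with 8 of 164 tested transcripts called (4.88%, against 4.44% over all). They had 6 genes with a call among 28 tested (21.4%, against 11.1%) and 1 switch gene, Mef2a, and their median largest difference was 14.97 points. The calls outside it fell in Camk2g, Fgfr1, Map4, Ppp1r12b and Tead1. Mef2a encodes a transcription factor of muscle genes. Its heart form took 70.9%, 67.6% and 69.9% in the lungs and 92%, 88.9% and 92.9% in the hearts, a shift of 21.7 ± 1.04 points (adjusted p = 0.0403), while the lung form was listed at 0 in all hearts.

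Internal coding exons could be read one by one. The inclusion share of an exon is the summed count of the transcripts that hold it, over those that either hold or skip it. Transcripts that span it with a retained intron or another exon boundary are left out. Among the exons that differ inside a switch pair, 132 coding exons of 62 genes were included at least 10 points more in heart and 22 of 19 genes at least 10 points more in lung, counting only exons with at least 20 informative counts in every library. The exons higher in heart had a median length of 81.5 bases, 121 of them a multiple of 3, and 14 were no longer than 27 bases. Those higher in lung had a median length of 108 bases, and 15 of the 22 were a multiple of 3. The forms of Nebl start from separate promoters, so inclusion of its exons cannot be told apart from the choice of promoter. The pairs of Svil, Palld, Pdlim5 and Mff, among others, also differ at the first exon. The part of promoter choice in their inclusion shares was not tested. Tandem exons also weigh on the counts of exons higher in heart, since Nebl gave 24 of the 132, Lrrfip2 14 and Lrrfip1 13. As these exons come from pairs that were called, their KO values describe the calls, and 3 against 3 libraries cannot give an exact two-sided permutation p below 0.10.

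The short exons below are shown because each adds coding sequence to a protein in heart and keeps the frame. Capitals mark the exon, lower case 20 intron bases on each side, 5′ to 3′ on the transcript strand of mm39. Pdlim5 exons 6 (chr3:142010466-142010483) and 5 (chr3:142012045-142012059) and Mef2a exon 9 (chr7:66894269-66894292) lie on the minus strand. Clta exon 5 (chr4:44031400-44031435) and Fxr1 exon 15 (chr3:34119123-34119203) lie on the plus strand, and Exoc7 exon 7 (chr11:116188397-116188489) and Palld exon 14 (chr8:61987892-61987942) on the minus strand.
Pdlim5 exon 6: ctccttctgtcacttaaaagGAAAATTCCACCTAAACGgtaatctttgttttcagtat
Pdlim5 exon 5: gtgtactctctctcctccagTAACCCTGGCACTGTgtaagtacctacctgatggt
Mef2a exon 9: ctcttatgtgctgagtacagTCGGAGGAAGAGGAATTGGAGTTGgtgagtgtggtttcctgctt
Clta exon 5: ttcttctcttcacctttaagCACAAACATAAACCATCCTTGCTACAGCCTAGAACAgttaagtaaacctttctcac
Palld exon 14: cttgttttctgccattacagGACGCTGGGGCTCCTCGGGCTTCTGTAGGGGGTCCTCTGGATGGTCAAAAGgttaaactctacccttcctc
Fxr1 exon 15: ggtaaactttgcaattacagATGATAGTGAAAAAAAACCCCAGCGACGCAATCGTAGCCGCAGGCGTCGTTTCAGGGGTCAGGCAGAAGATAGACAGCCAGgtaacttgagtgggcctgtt
Exoc7 exon 7: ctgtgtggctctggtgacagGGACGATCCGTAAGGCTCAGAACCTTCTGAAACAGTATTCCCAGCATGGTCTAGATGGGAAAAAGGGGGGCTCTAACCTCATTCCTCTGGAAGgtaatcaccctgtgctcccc
Pdlim5 exon 6, of 18 bases, was included at 7.8%, 7.07% and 7.17% in the lungs and 88.2%, 89.8% and 90.2% in the hearts. The Mef2a exon of 24 bases was included at 74%, 71.8% and 76.6% in the lungs and 93.2%, 89.9% and 93.8% in the hearts, so lung held it in most copies too. For the Clta exon of 36 bases the shares were 0.638%, 0.324% and 0.2% in the lungs and 27.9%, 33.6% and 29.8% in the hearts. The Clta exon was thus near absent from lung and a minority choice in heart. Palld exon 14, of 51 bases, was included at 1.49%, 0.608% and 4.07% in the lungs and 63.2%, 63.1% and 56.6% in the hearts. Exoc7 exon 7, of 93 bases, was included at 2.72%, 2.37% and 2.25% in the lungs and 59.6%, 65.5% and 53.3% in the hearts.

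Fxr1 encodes an RNA-binding protein of the fragile X family that muscle is known to need. Exon 15, of 81 bases, was included at 3.47%, 1.72% and 0.211% in the lungs and 58.8%, 54.8% and 63.5% in the hearts. Exon 16, of 92 bases and thus not a multiple of 3, was included at 32.9%, 37.5% and 35.3% and 72.2%, 69% and 74.5%. The hearts lay above all lungs for both exons.

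The pair of exons in Usp25 is on chromosome 16, exon 19 of 114 bases at chr16:76894537-76894650 and exon 20 of 96 bases at chr16:76896539-76896634, plus strand. Both were included at 1.78%, 0.196% and 0.361% in the lungs and 78.9%, 80.2% and 91.2% in the hearts. The heart form has 1125 codons and the lung form 1055.

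Clasp1, Cacna1c and Immt fall outside the naming rule and were picked, after their values were seen, for exons that move in opposite directions within 1 gene. Clasp1 encodes a protein that stabilises microtubule ends. Its exon 23, of 24 bases (chr1:118469405-118469428, plus strand), was included at 11.3%, 4.3% and 8.09% in the lungs and 85.5%, 79.3% and 86.6% in the hearts, and its exon 25, of only 3 bases (chr1:118475386-118475388), at 91.8%, 98.3% and 92.6% in the lungs and 35.4%, 36.6% and 32.3% in the hearts. Both are shown, with capitals for the exon, because reading so short an exon rests on the junctions around it.
Clasp1 exon 23: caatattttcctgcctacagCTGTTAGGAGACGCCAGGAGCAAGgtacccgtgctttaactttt
Clasp1 exon 25: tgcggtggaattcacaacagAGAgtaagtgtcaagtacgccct
Cacna1c encodes the pore of the L-type calcium channel of heart and smooth muscle and uses either of 2 versions of exon 8, both of 104 bases. The version at chr6:118719226-118719329 (minus strand) was included at 46.4%, 36.9% and 39.2% in the lungs and 97.8%, 96% and 96% in the hearts, and that at chr6:118718832-118718935 at 53.6%, 63.1% and 60.8% and 2.21%, 4.02% and 3.97%. Smooth muscle markers, as given above, were present in both organs.
Cacna1c exon 8, heart form: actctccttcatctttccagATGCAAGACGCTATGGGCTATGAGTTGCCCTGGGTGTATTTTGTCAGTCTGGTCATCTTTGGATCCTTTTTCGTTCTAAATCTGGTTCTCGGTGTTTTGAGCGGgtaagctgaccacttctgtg
Cacna1c exon 8, lung form: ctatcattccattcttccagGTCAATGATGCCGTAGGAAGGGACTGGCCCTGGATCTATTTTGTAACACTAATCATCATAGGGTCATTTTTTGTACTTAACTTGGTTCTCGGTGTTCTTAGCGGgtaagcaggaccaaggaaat
Immt encodes mitofilin of the inner mitochondrial membrane. Its exon 5, of 105 bases, was included at 81.5%, 72.1% and 78.5% in the lungs and 5.96%, 5.67% and 6.54% in the hearts, while its exon 9, of 15 bases, went from 56%, 59.4% and 57.9% to 94.9%, 94.7% and 94%.

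**Figure D3:**
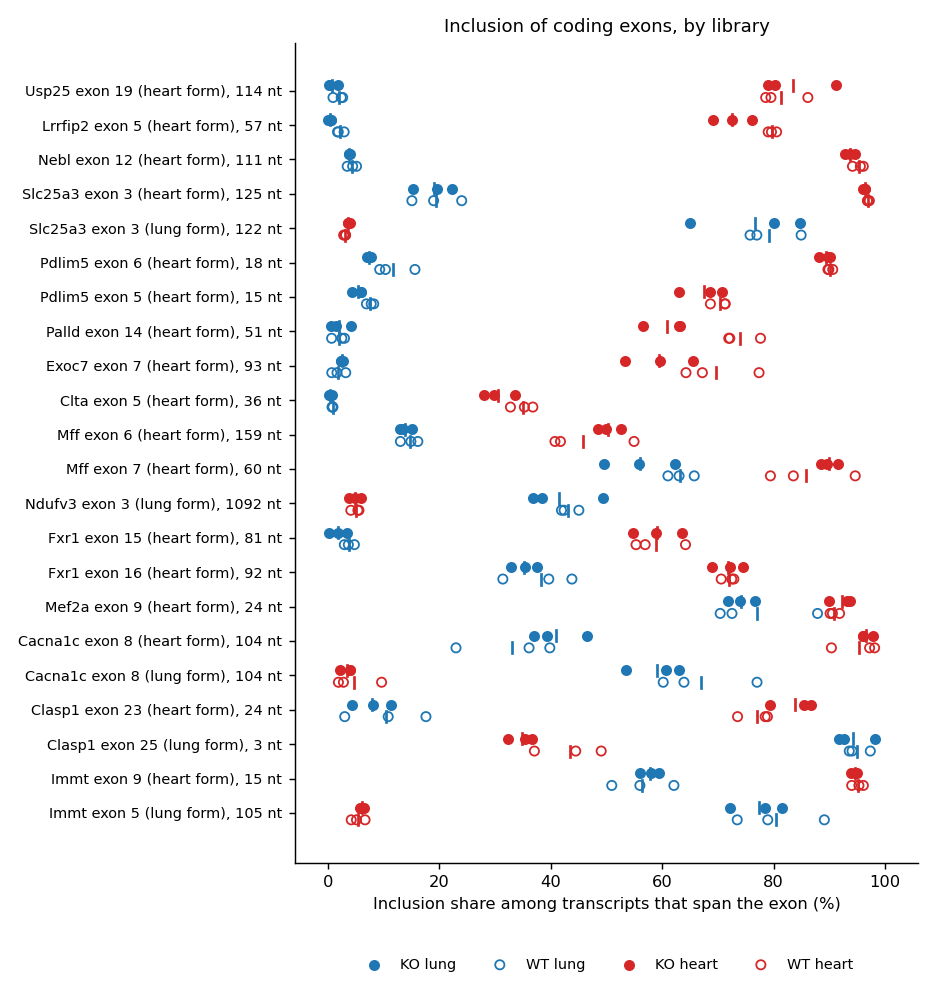
Inclusion share (horizontal axis, %) of 22 chosen coding exons in the 3 KO lungs and KO hearts (filled) and the WT organs (open), with bars for group means. The exons come from pairs called in these KO libraries, so their direction in KO is that of the calls. Exons of heart forms lie to the right in heart and those of lung forms to the right in lung. Among the exons shown, the KO group means differ by 18.2 points or more. For Nebl, inclusion cannot be told apart from the choice of promoter.

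Short motifs were counted in the 200 bases beside these exons, on the transcript strand only. The window was of fixed length, so beside a short intron it ran on past that intron. The 132 exons higher in heart include 24 of Nebl, whose inclusion cannot be told apart from the choice of promoter. TGCATG, the letters that RBFOX proteins bind, stood downstream of 31 of the 132 exons higher in heart (23.5%), of 2 of the 22 higher in lung (9.09%) and of 8.21% of the 81758 internal coding exons of all tested transcripts. Upstream, it stood beside 6.82% of the exons higher in heart, 31.8% of those higher in lung (7 of 22) and 7.03% of all. With 1 exon per gene, 17 of 62 genes higher in heart held it downstream (27.4%). In the heart exon of Slc25a3 printed above it starts 9 bases into the downstream intron, and the lower-case run after that exon shows it. The same match lies within the 200 bases upstream of the Slc25a3 lung exon and counts there too. The counts of the exons higher in heart and higher in lung are thus not independent. ACTAAC, the core of the site of STAR proteins such as QKI, stood downstream of 15.2% of the exons higher in heart. Downstream of those higher in lung it was 9.09% (2 of 22), and of all 2.65%. Upstream, ACTAAC stood beside 3.79% of the exons higher in heart, 18.2% of those higher in lung (4 of 22) and 3.16% of all. TGTGTG, a match for CELF proteins, stood downstream of 23.5%, 9.09% and 16.2% in the same order, and upstream of 16.7%, 22.7% and 14.9%. A match is a description of the letters and not a site in use.

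Among RNA-binding proteins of splicing, the share of called transcripts was close to that of all genes. Of their 267 tested transcripts 13 were called (4.87%, against 4.44% over all). Of 50 listed genes 40 were tested for usage, 10 had a called transcript (25%, against 11.1% of all genes, which have fewer tested transcripts each) and 3 were switch genes, Fxr1, Srsf7 and Celf1. Genes with a call and no switch included Hnrnpa2b1, Hnrnph1, Mbnl1, Qki, Rbfox2 and Srsf10, and the median largest difference was 19.3 points. Srsf7 is an SR protein of constitutive splicing. A retained-intron form of it took 28.9%, 20.9% and 25% in the KO lungs and was listed at 0 in the KO hearts. Celf1, a regulator of muscle splicing, had a lung form at 36.7%, 39.5% and 50.4% in the lungs and 15.2%, 14.4% and 15.5% in the hearts, and both its forms hold 486 codons.

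The levels of some of the same 50 genes differed between the organs. On the deposited gene values, on the log2 scale, 27 of the 50 differed by at least 1.5-fold at an adjusted p under 0.05 (limma), 15 higher in lung and 12 higher in heart. Over all 16802 genes tested, 64.2% were called, 38.6% higher in lung and 25.6% higher in heart. The median lung minus heart difference was 0.25 in the list and 0.28 over all genes. In the other fits tried, 4 of the 27 lost their call at least once. Srsf10 went from 0.62 to 0.08 with summed transcript counts and was also lost without KO mouse 1 or 2. Srsf1 and Tia1 were lost with summed counts, Tia1 without KO mouse 3, and Nova2 without KO mouse 1 or 3. These 4 are named after their values were seen. No sign changed among the 27.

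The 4 genes furthest to the heart side include regulators of heart splicing. Rbm20, known for the splicing of titin in heart, stood at 7.52, 7.03 and 6.65 (log2 gene level) in the lungs and 13.52, 13.68 and 13.43 in the hearts, a difference of -6.48 ± 0.17 (SE), adjusted p = 4.92e-06. Rbfox1 stood at 4.27, 3.77 and 3.62 in the lungs and 10.10, 10.03 and 9.98 in the hearts (lung minus heart -6.15 ± 0.21 (SE), adjusted p = 5.87e-06). Rbm24, a muscle splicing factor, stood at 6.92, 6.32 and 5.94 and 12.32, 12.45 and 12.32 (lung minus heart -5.97 ± 0.20 (SE), adjusted p = 5.87e-06). Rbm38, its close relative, stood at 6.71, 6.33 and 6.13 and 10.17, 10.54 and 10.07 (lung minus heart -3.87 ± 0.19 (SE), adjusted p = 1.56e-05). All 4 were higher in each heart than in any lung.

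On the lung side, the epithelial regulators Esrp1 and Esrp2 led. Esrp1 stood at 8.78, 8.84 and 9.07 in the lungs and 2.57, 0.00 and 0.00 in the hearts, with 2 hearts listed at 0, so its fitted difference of 8.04 is no exact fold. Esrp2 stood at 9.09, 9.28 and 8.99 in the lungs and 3.88, 3.29 and 3.03 in the hearts (lung minus heart 5.72 ± 0.27 (SE), adjusted p = 1.38e-05). Mbnl3, of the muscleblind family, stood at 8.28, 7.85 and 8.34 and 3.79, 3.22 and 2.98 (lung minus heart 4.82 ± 0.29 (SE), adjusted p = 3.27e-05). Ptbp3, a polypyrimidine tract-binding protein, stood at 12.23, 12.20 and 12.39 and 10.21, 10.38 and 10.22 (lung minus heart 2.01 ± 0.12 (SE), adjusted p = 3.26e-05). The more abundant Mbnl1 (lung minus heart 0.54 ± 0.15 (SE)) and Mbnl2 (-0.008 ± 0.13 (SE)) were not called. Qki, named above for ACTAAC, was not called either (-0.06 ± 0.17 (SE)). Mbnl1, Mbnl2 and Qki fall outside the naming rule. The lung epithelium markers given at the start moved the same way as Esrp1 and Esrp2, and their part in these levels was not tested.

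**Figure D4:**
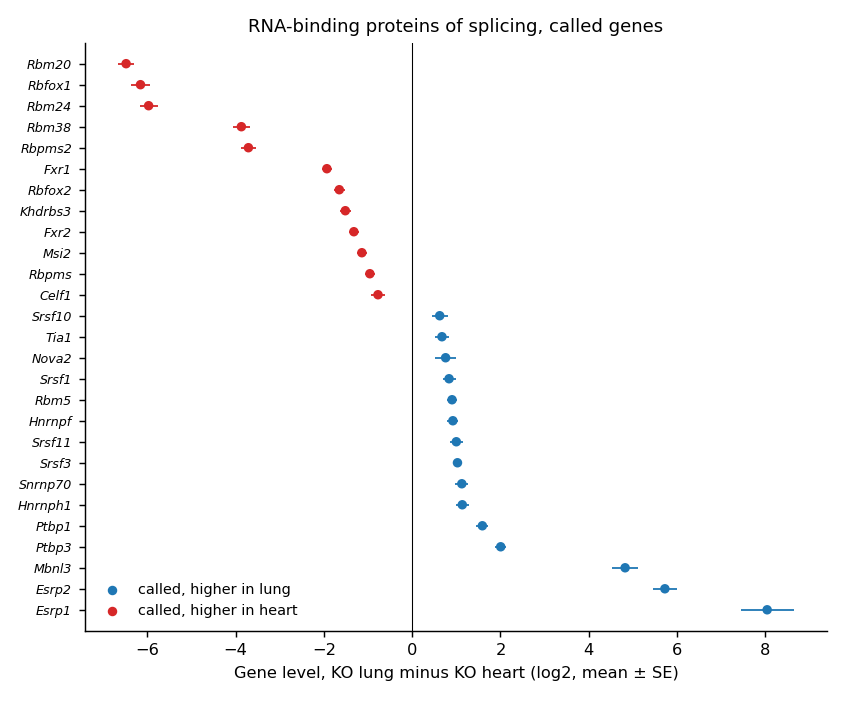
Difference of the deposited gene level, KO lung minus KO heart (horizontal axis, log2, estimate ± SE of the limma fit), for the 27 of 50 RNA-binding proteins of splicing that were called. Rbm20, Rbfox1 and Rbm24 lie between -6.48 and -5.97 and Esrp1 at 8.04, and the 12 genes in red were higher in heart.

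Of Adam19 itself, almost no normal transcript was counted in the KO mice. Estimated counts of its listed transcripts summed to at most 12.1 in every KO library, too few for shares. The targeted allele has 2 listed transcripts. By its label 1 of them joins exon 5 to the reporter, and it took 87.6%, 86.7% and 76.7% of the allele's counts in the lungs and 97.2%, 95.5% and 96.5% in the hearts. The other is labelled as lacking exons 6 and 7 and took 12.4%, 13.3% and 23.3% in the lungs and 2.81%, 4.53% and 3.51% in the hearts. That difference of 12.7 points held its direction in all 3 mice but was not called (limma adjusted p = 0.0632).

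The WT mice are other animals that the KO calls did not use. Of the 1110 called transcripts, 1046 lie in genes with at least 100 counts in all 6 WT libraries. Of these, 918 (87.8%) differed in the same direction in WT, against 69.8% of the 21776 transcripts that were not called. Among uncalled transcripts with a KO difference of at least 10 points it was 72.3% of 5054. At least 10 points in the same direction in WT were seen for 660 of the 1046 called transcripts (63.1%). The median difference was 28.3 points in KO and 15.8 points in WT, where the KO values are those that selected the transcripts. With the mouse as a block, limma called 0 of 20875 transcripts between WT lung and WT heart (0%), although 4166 had an unadjusted p under 0.05. Without the block it called 857 (4.11%), and of the 930 KO calls tested in WT 387 were among them, all in the KO direction.

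Large KO differences were not always seen in WT. Of 478 called transcripts with a KO difference of at least 30 points, 320 had a WT difference in the same direction of at least 50% of that size, and 108 had one under 10 points or in the other direction. Of the 358 genes whose top transcript differed between the KO organs, 316 had enough counts in WT, and 109 of these (34.5%) showed the same change there. Among the 83 that were switch genes it was 52 of 81. Of 259 switch pairs that could be read in WT, 168 (64.9%) had both gains of at least 10 points there. For pairs with an internal exon it was 77 of 100, for pairs with different last exons 36 of 43 and for pairs with different first exons 73 of 127. Where both forms were protein coding with unequal coding sequences it was 121 of 158 (76.6%), and where they encoded the same protein 15 of 34 (44.1%). These counts were not tested against each other. Of the exons named above as higher in heart, 123 of 132 were at least 10 points higher in WT heart too, and 18 of the 22 higher in lung were so in WT lung.

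Single genes show both ends. The heart form of Usp25 took 2.64%, 2.38% and 0.898% in the WT lungs and 78.4%, 79.5% and 85.7% in the WT hearts, and the long form of Nebl took 2.45%, 1.92% and 2.71% and 80.3%, 83.1% and 83.2%. Both lie where the KO organs lie. The lung form of Cnot7 took 0%, 85.8% and 19.5% in the WT lungs and 28.5%, 67.1% and 0% in the WT hearts, and that of Dyrk1a took 0%, 61.5% and 13.3% and 63.5%, 52.4% and 12.4%, so the WT organs overlapped in both genes. They overlapped also in Gapdh, Srsf7 and Aldoa. In Gapdh the lung form took 3.73%, 11.6% and 0% in the WT lungs and 12.7%, 21.8% and 2.58% in the WT hearts, against the KO direction.

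**Figure D5:**
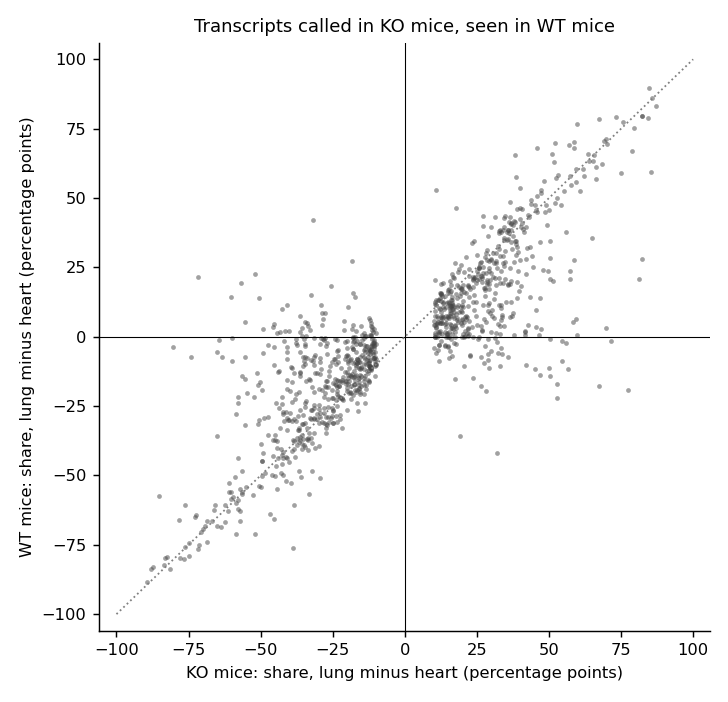
Mean share difference, lung minus heart, in KO mice (horizontal axis, percentage points) against WT mice (vertical axis), 1 point for each of 1046 transcripts called in KO. Of these, 918 lie in the quadrants of equal sign, and the dotted line marks equal values.

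Whether the organ difference itself depended on genotype was tested with an interaction term over all 12 libraries. Of 26835 transcripts 5 were called (0.0186%), in Ehbp1, Entpd5, Ski, Hsp90ab1 and Abcc9, while 2247 had an unadjusted p under 0.05. None of the switch pairs named above was among them, and their adjusted p for the interaction lay between 0.175 and 0.996, with Slc41a3 not tested in that fit. Cnot7 (adjusted p = 0.54 for the lung form) and Dyrk1a (0.567) did not pass either, so a difference between KO and WT was not shown for them. KO and WT mice share no prefix of the mouse identifier, so a difference between prefixes and one between genotypes cannot be told apart.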

How the data were processed

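Total RNA of lung and heart of 3 KO and 3 WT mice was sequenced, and the 6 KO libraries carry the comparison. Per the submitters' processing notes cutadapt, STAR, Salmon and limma 3.42.2 were used, and the authors quantified transcripts with Salmon against GENCODE vM33 of mm39. The deposited transcript values are log2 of 1 plus the estimated count, and the deposited gene values are log2 values with a scaling between libraries. Both are estimates, and the split of short reads among similar transcripts carries an error that these values do not show.

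Transcript values were turned back into estimated counts, and each was divided by the sum over its gene name. Genes needed a sum of 100 in all 6 libraries, and transcripts 10 in at least 3. The log2 odds of the share (offset 0.5) were fitted with limma 3.58.1 (R 4.3.3), with organ and mouse as terms, a variance trend and Benjamini-Hochberg adjustment over all transcripts. Lung and heart of 1 mouse carry the same identifier, so the pairing is by animal. The correlation of same-mouse deviations from the organ means was 0.034, -0.030 and -0.025. The genotype interaction used all 12 libraries, and gene levels were fitted likewise (1.5-fold, adjusted p under 0.05). The scripts were tested on simulated data. Mice are the replicates, 3 per group.

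Named genes were the 15 largest switches between 2 protein-coding forms with a swapped top transcript (symbols starting with Gm or ending with Rik left out), up to 5 switch genes per gene list, Adam19, and up to 4 RNA-binding proteins per direction. Members, lists and markers were chosen with earlier results of these data known. Exon structures and sequences came from GENCODE vM39 (99.5% of tested transcripts matched by identifier, 52.5% with the same version), read with pysam 0.24.0 and pandas 2.3.3. Near-identical copies were sought with blastn 2.17.0 (95% identity over 500 bases). Alternatives were no block, another offset, an arcsine scale, other minimums, another grouping, protein-coding transcripts alone, diffSplice and each mouse left out. Some list members are not reported here by name.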

Additional observations from a re-analysis of the deposited data

Results flagged for a closer look

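The lung minus heart share difference of 5 transcripts differed between KO and WT mice by the interaction term (limma adjusted p from 0.0370 to 0.0474). Most rest on shares listed at 0 in 1 group. The transcript ENSMUST00000045167.11 of Ehbp1 took 32.0%, 42.5% and 37.7% in the KO lungs and was listed at 0 in all 3 WT lungs, while the hearts of both genotypes held 72.6% to 78.6%. Lung minus heart was -38.9 points in KO and -76.3 points in WT, so the organs lay closer together in KO, and the signed KO minus WT value was 37.354 points. For ENSMUST00000072061.12 of Entpd5 the WT lungs were again listed at 0 and the KO lungs held 16.6%, 17.6% and 24.7%. Lung minus heart was -29.3 points in KO and -51.1 points in WT, a KO minus WT value of 21.725 points. For ENSMUST00000073173.12 of Abcc9, which encodes a subunit of ATP-sensitive potassium channels, the KO lungs were listed at 0 and the WT lungs held 11.4%, 19.7% and 16.6%. Lung minus heart was -42.2 points in KO and -27.2 points in WT, a KO minus WT value of -14.962 points. For ENSMUST00000030917.6 of Ski the KO minus WT value was -21.345 points (-18.4 in KO, 2.90 in WT), with KO lungs at 92.9%, 83.9% and 67.8% and KO hearts at 100% each. For ENSMUST00000163966.8 of Hsp90ab1, annotated for nonsense-mediated decay, it was -12.771 points (-5.72 in KO, 7.05 in WT), and its WT lungs spread over 2.47%, 0% and 28.2%. No transcript was called on the arcsine scale or with an offset of 5 estimated counts.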

How the results depend on the processing

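The number of calls depended on the model. Without the replicate block 2746 transcripts and 882 switch genes were called, with an offset of 5 estimated counts 2160 and 684, on the arcsine scale 1987 and 617, and with no transcript filter 438 and 78, with 432 of the 1110 calls among the 438. Dropping the minimum difference gave 1748 transcripts. Calls higher in lung made up 46.6% to 50.5% in the fits that called any. Leaving out 1 mouse gave 0 to 0 called transcripts and 0 to 0 switch genes, since 2 pairs leave 1 residual degree of freedom, which says nothing about stability, and 542 to 662 swaps of the top transcript, a count that can only grow when a mouse is left out. A minimum of 500 counts gave 207 swaps. limma diffSplice with Simes per gene called 1278 genes against 796, with 636 shared. The interaction gave 26 transcripts without the replicate block, 0 on the arcsine scale and 0 with the offset of 5. The WT organs gave 857 without the replicate block against 0 with it, an alternative chosen after seeing the data. Of 66 named forms, 17 lost their call with no transcript filter and 4 at a minimum of 20 points, and none reversed. With protein-coding transcripts alone, 9 exon inclusion differences, all in Nebl and Lrrfip2, moved outward by more than the spread. Shares near 0 or 100% rest on the offset, and low shares on few counts.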
